A study of Mus musculus with 10 samples.

Results

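Neuregulins and ErbB receptors were followed here as a gene family of 8 members, Nrg1, Nrg2, Nrg3, Nrg4, Egfr, Erbb2, Erbb3 and Erbb4, among the 24837 genes of a single-nucleus RNA count matrix from mouse hippocampus. The members were taken by gene symbol, and no measured value chose them. All 8 were in the matrix, and they held 895692 of the 101256412 transcript tags (unique molecular identifiers, UMIs) in barcodes with at least 500 UMIs. Nuclei were freed from frozen hippocampus, sorted by 7AAD, a DNA stain, and made into 10x 3′ libraries. They came from WT mice of strain C57B/6J, 4 to 7 months old and without stimulation, so that there was a single group and no treated or mutant animals. The labels list 10 samples of that group, of which 4 are named RNASET2 controls in their titles with no other difference in their labels. The matrix holds 7 barcode suffixes that no label ties to a sample, so all nuclei were treated as 1 sample, each suffix was used as a description, and every 95% interval below covers counting error only.

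Neuregulins are signalling proteins with an EGF-like domain, most of them made as membrane-bound precursors that proteases release. ErbB receptors are tyrosine kinases that work as pairs. ErbB4 binds neuregulins and has an active kinase, and in the hippocampus it is best known from inhibitory interneurons. ErbB3 binds neuregulins but has a weak kinase and signals through a partner, most often ErbB2, which has no known ligand of its own. EGFR binds EGF, TGF-alpha and related ligands rather than neuregulins, and in glia it is known from astrocytes and from progenitors.

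The receptors share the catalytic loop of the kinase, and the ligands share the EGF-like domain that binds the receptor, and these stretches are given here. The catalytic loop of the receptors, 24 bases read 5′ to 3′ from GENCODE M21 transcripts of GRCm38, is given with capitals at bases unlike Erbb4.
Erbb4: catcgggatctggcagcccgcaat
Egfr: caCcgTgaCTtggcagccAgGaat
Erbb2: caCAgggaCctAgcTgcccgAaaC
Erbb3: catAgggaCctTgcGCTccgGaat
Egfr differed from Erbb4 at 6 of these 24 bases, and Erbb2 and Erbb3 each differed at 7. The loop was found by a search that fixed the amino acid of all but 1 of its 8 codons. The differences therefore do not measure how close the receptors are. Coding bases of the EGF-like domain, from its first to its last cysteine codon, are given for 3 ligands with the 6 cysteine codons in capitals.
Nrg1 run 1: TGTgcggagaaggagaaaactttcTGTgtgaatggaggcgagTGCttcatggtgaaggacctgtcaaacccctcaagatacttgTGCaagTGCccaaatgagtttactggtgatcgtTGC
Nrg1 run 2: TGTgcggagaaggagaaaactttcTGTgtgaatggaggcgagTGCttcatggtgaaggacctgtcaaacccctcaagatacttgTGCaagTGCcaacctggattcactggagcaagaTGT
Nrg3: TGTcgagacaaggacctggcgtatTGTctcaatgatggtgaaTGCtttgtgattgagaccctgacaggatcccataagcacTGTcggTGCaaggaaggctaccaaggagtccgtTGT
Nrg4: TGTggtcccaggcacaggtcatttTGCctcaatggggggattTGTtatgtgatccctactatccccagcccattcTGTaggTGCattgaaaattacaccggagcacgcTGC
Nrg1 has alternative ends of the domain, known as beta (run 1, in 8 of 12 coding transcripts) and alpha (run 2, in 4 of 12). The runs were found by a search that fixed the gaps of 7, 1 and 8 codons between cysteine codons, so their equal lengths are no result. The other 2 of the 5 gaps were free within set limits. Of these, 1 held 5 codons in all 4 runs. The gap in the middle held 13 codons in Nrg1, 12 in Nrg3 and 10 in Nrg4. The counts are of whole genes, so they do not tell these Nrg1 forms apart.

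The members differ widely in gene length, which bears on counts from nuclei, where much RNA is unspliced. In GRCm38 with GENCODE M21, Nrg1 (ENSMUSG00000062991) spans 31814551 to 32884029 of chromosome 8 on the minus strand (1069.5 kb). Nrg3 (ENSMUSG00000041014) spans 38368952 to 39473088 of chromosome 14 on the minus strand (1104.1 kb), and Erbb4 (ENSMUSG00000062209) spans 68032186 to 69108059 of chromosome 1 on the minus strand (1075.9 kb). These 3 genes are each longer than 1000 kb. Nrg2 (ENSMUSG00000060275) is a gene of chromosome 18 (36017652 to 36197380, minus strand, 179.7 kb), and Egfr (ENSMUSG00000020122) one of chromosome 11 (16752203 to 16918158, plus strand, 166.0 kb). Nrg4 (ENSMUSG00000032311; chromosome 9, 55220222 to 55326844, minus strand, 106.6 kb) is overlapped by Fbxo22 on the other strand. The shortest are Erbb2 (ENSMUSG00000062312, chromosome 11, 98412470 to 98437716, plus strand, 25.2 kb) and Erbb3 (ENSMUSG00000018166, chromosome 10, 128567523 to 128589652, minus strand, 22.1 kb). Mien1 overlaps Erbb2 on the other strand, Mir6917 lies within Erbb3 and Gm27332 within Nrg3 on the same strand, so reads in these overlaps may be split. Whether introns and strand were used in counting is not given in the sources used here. No exon, intron or UTR is resolved in the values.

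After filters and removal of called doublets, 15214 nuclei were used. Classes were named from marker genes and without any member of the family, and a name stands for nuclei like that type. They included 8504 excitatory neurons, 1284 inhibitory neurons, 3461 non-neuronal nuclei and 103 Cajal-Retzius neurons, while 1862 nuclei (12.2%) stayed unnamed. Clusters with markers of several classes or of none were left unnamed. By the naming rule, so were clusters with inhibitory markers but no interneuron subclass, whereas excitatory clusters without a finer name were kept as excitatory. The suffixes were unlike in depth and makeup. Median UMIs per nucleus ran from 1088 in suffix 7 to 8194 in suffix 3. Suffix 1 held 690 of 701 nuclei of an unnamed cluster led by Baiap3 and Resp18, suffix 6 held 5 non-neuronal nuclei, and suffix 7 held 1 excitatory and no inhibitory neuron. Doublets were called in under 0.5% of suffixes 2, 5 and 7, so doublets cannot be taken as removed there. Across suffixes, 21 of 15532 barcode sequences occurred more than once. Free RNA was gauged with Slc17a7, a glutamate transporter gene that marks excitatory neurons. It stood at 21.4 CPM (UMIs of a gene per 1000000 UMIs, the scale of all levels below) in microglia and 25.7 CPM in oligodendrocytes, against 259 CPM in CA1 neurons.

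**Figure D1:**
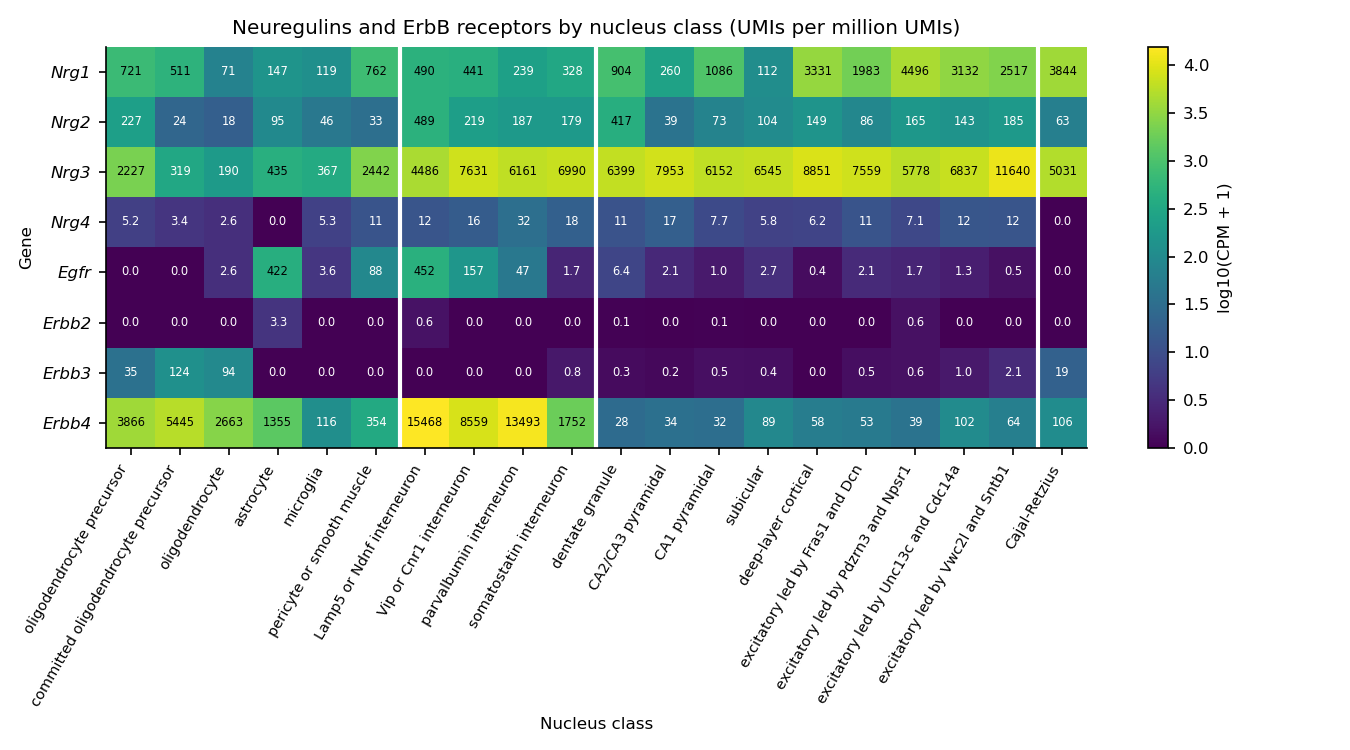
Level of each member in each nucleus class, as log10(CPM + 1) in colour with CPM printed in the cells; white lines part glia and vascular cells, inhibitory neurons, excitatory neurons and Cajal-Retzius neurons. Nrg3 fills the neuronal columns, Nrg1 is uneven among excitatory classes, Erbb4 peaks at 15468 CPM in Lamp5 or Ndnf interneurons, and Erbb3 is seen in the oligodendrocyte lineage.

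Among the ligands, Nrg3, which acts on ErbB4, was present in nearly every neuron. A Nrg3 UMI was found in 99.9% of neurons (exact binomial interval 99.8 to 99.95), and in 99.0% after every nucleus was thinned to 1000 UMIs. Over the 9 named excitatory and inhibitory classes its level ran from 4486 CPM in Lamp5 or Ndnf interneurons to 8851 CPM in deep-layer cortical neurons. Parvalbumin interneurons (6161 CPM) and CA1 neurons (6152 CPM) could not be told apart, with an interval of their ratio from 0.984 to 1.02. Among excitatory neurons without a finer name, a cluster led by Vwc2l and Sntb1 stood higher, at 11640 CPM (lowest 8475, median 11477 and highest 13122.5 CPM over 5 suffixes). Within the Vip or Cnr1 class, a cluster of 58 nuclei led by Npas1 reached 19015 CPM. Outside neurons, oligodendrocyte precursors held 2227 CPM (1924, 2241 and 2620 CPM as lowest, median and highest of 6 suffixes), and 92.0% of them had a UMI (88.3 to 94.8). Pericytes or smooth muscle cells, at 2442 CPM, also carried 2287 CPM of 3 general neuronal markers with a median of 900 UMIs per nucleus, and the part of neuronal RNA in their values was not tested. Oligodendrocytes at 189.8 CPM lay below microglia at 367 CPM (0, 119 and 1217 CPM as lowest, median and highest of 5 suffixes). By suffix medians the order turned, with 183 CPM in oligodendrocytes. Single nuclei weighed on these low levels, since 1 nucleus held 156 of 864 Nrg3 UMIs in oligodendrocytes, 1 held 76 of 206 in microglia and 1 held 102 of 133 in astrocytes. Free RNA was not tested as their source.

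Nrg1, the neuregulin known from axons that instruct myelin, varied widely among excitatory neurons. Cajal-Retzius neurons, counted apart from the excitatory neurons, led the named classes at 3844 CPM (3582 to 4120). They had 2574 and 4361 CPM in the 2 suffixes with at least 20 such nuclei. Suffixes 1, 3 and 4, with fewer nuclei, were at 3558, 4347 and 3644 CPM. Suffix 5 was at 852 CPM, from 5 UMIs in 8 nuclei. Deep-layer cortical neurons followed at 3331 CPM (2749, 3345 and 3681 CPM as lowest, median and highest of 5 suffixes). An excitatory cluster led by Pdzrn3 and Npsr1 was higher than both, at 4496 CPM (3707, 4534 and 4849 CPM), and 98.4% of its nuclei had a UMI. In suffixes with at least 20 nuclei, these clusters did not overlap with CA1 neurons (545, 1048 and 1371 CPM over 6 suffixes). They did not overlap with dentate granule neurons either (719, 916 and 1113 CPM), and the ranges of CA1 and granule neurons overlapped each other. CA2/CA3 neurons (177, 268 and 327 CPM) lay below both in every suffix, and subicular neurons were lowest, at 65.4, 115 and 139 CPM over 5 suffixes. The subicular level of 112 CPM was not separable from microglia at 119 CPM, with a ratio of microglia to subicular neurons of 1.06 (0.798 to 1.39), and microglia were at 90.9 CPM without their highest nucleus. Oligodendrocyte precursors held 721 CPM (451, 801 and 898 CPM over 6 suffixes), and oligodendrocytes, at 70.8 CPM, lay below microglia.

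**Figure D2:**
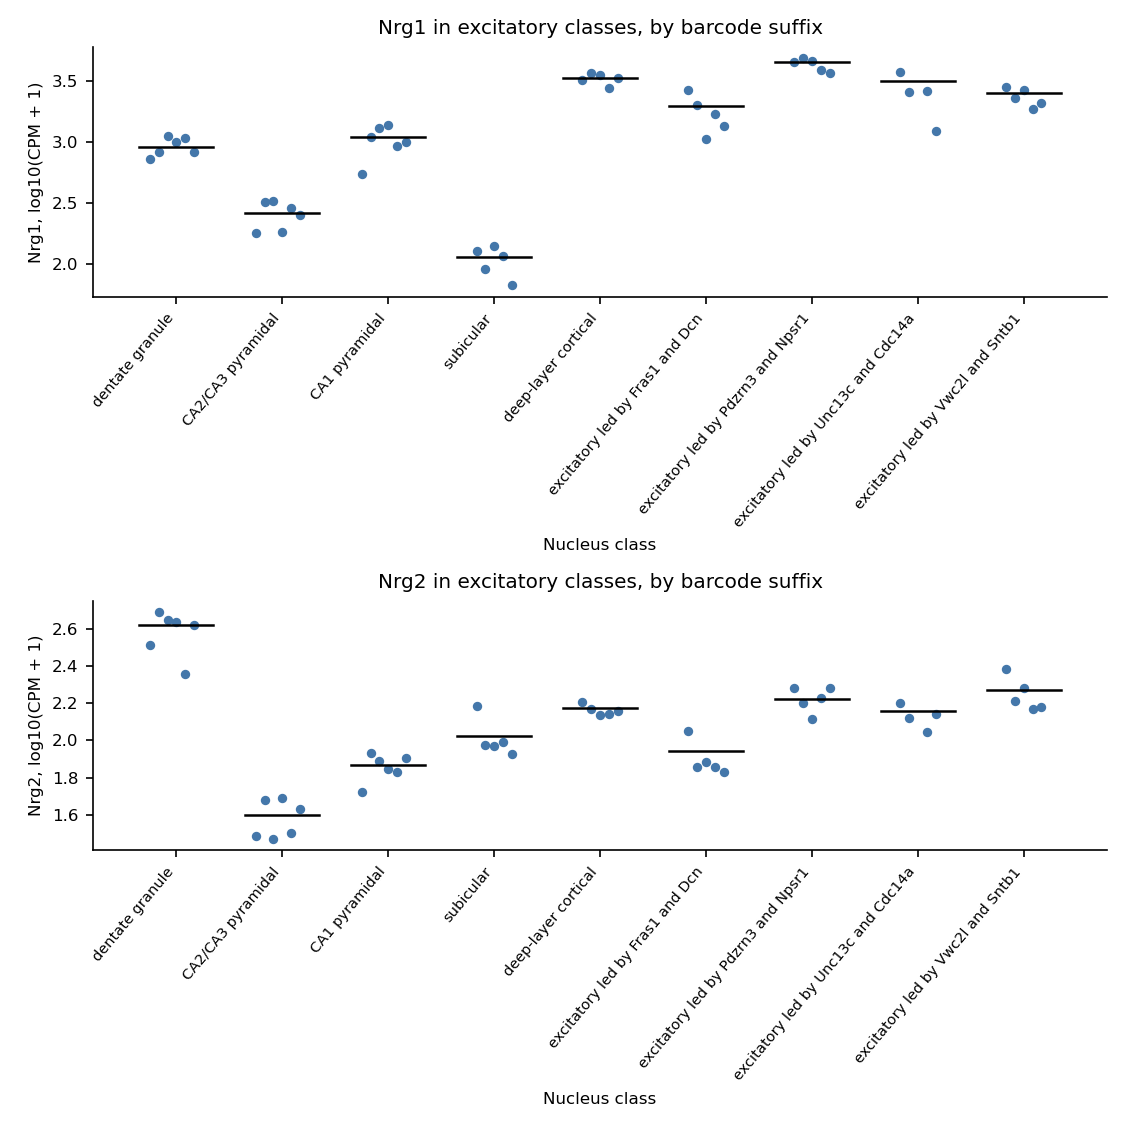
Nrg1 (top) and Nrg2 (bottom) as log10(CPM + 1) in excitatory classes; points are barcode suffixes with at least 20 nuclei of the class and lines the level over all its nuclei. Subicular and CA2/CA3 neurons sit lowest for Nrg1 (112 and 260 CPM), and dentate granule neurons sit highest for Nrg2 (417 CPM).

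Nrg2, a ligand close to Nrg1 that also binds ErbB4, was highest in Lamp5 or Ndnf interneurons and in dentate granule neurons. It reached 489 CPM (456 to 524) in the interneurons, with 364, 490.5 and 590 CPM as lowest, median and highest of 6 suffixes. In granule neurons it was 417 CPM (408 to 427), with 225, 424 and 489.7 CPM over 6 suffixes, so the ranges of both classes overlapped. Other inhibitory classes lay between 179 CPM (somatostatin) and 219 CPM (Vip or Cnr1), CA1 neurons were at 73.1 CPM, and CA2/CA3 neurons at 38.6 CPM were not separable from microglia at 46.3 CPM. Oligodendrocyte precursors were at 227 CPM and could not be told from Vip or Cnr1 interneurons (ratio 1.04, 0.862 to 1.24).

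Nrg4, an ErbB4 ligand better known from fat tissue, was scarce, with 1161 UMIs in all nuclei used. It was highest in parvalbumin interneurons at 32.3 CPM (25.5 to 40.5, from 76 UMIs), with 22.2, 27.3 and 61.4 CPM as lowest, median and highest of 5 suffixes. Somatostatin interneurons (18.49 CPM), CA2/CA3 neurons (17.3 CPM) and Vip or Cnr1 interneurons (15.8 CPM) followed and could not be ordered among themselves. The pooled parvalbumin level was above that of the next named class, with a ratio to somatostatin interneurons of 1.75 (1.19 to 2.596). Somatostatin interneurons had 9.74, 16.2 and 32.0 CPM as lowest, median and highest of 5 suffixes, so the ranges of both classes overlapped. No UMI was seen in 131 astrocytes or 103 Cajal-Retzius neurons, where 3 UMIs would be 9.82 and 14.5 CPM, so the same level as in parvalbumin interneurons would have been visible there.

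Among the receptors, Erbb4 was the most abundant, and it split the neurons into classes of high and low level. Lamp5 or Ndnf interneurons held 15468 CPM (15281 to 15657), with 11833.5, 14879 and 17909 CPM as lowest, median and highest of 6 suffixes. Parvalbumin interneurons held 13493 CPM (10900.0, 13159.9 and 15211 CPM over 5 suffixes), and Vip or Cnr1 interneurons 8559 CPM (6994, 8272 and 10018 CPM over 6 suffixes). The parvalbumin range overlapped that of Lamp5 or Ndnf interneurons and lay above that of Vip or Cnr1 interneurons. Somatostatin interneurons stood far below these, at 1752 CPM (959, 1151 and 1826 CPM over 5 suffixes), with no overlap with the other named inhibitory classes. Suffix 1, outside that range with 19 nuclei, held 1229 of the 4170 UMIs at 5143 CPM, and the other suffixes together were at 1374 CPM. A single somatostatin nucleus held 755 of the UMIs. At the level of nuclei, the median Erbb4 count was 72 UMIs in Lamp5 or Ndnf, 62 in parvalbumin, 28.5 in Vip or Cnr1 and 3 in somatostatin interneurons. Thinned to 1000 UMIs, 99.6, 99.0, 96.0 and 54.5% of these nuclei had a UMI in the same order.

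In excitatory classes Erbb4 was low. It was 28.1 CPM in dentate granule neurons, 31.9 in CA1, 33.8 in CA2/CA3, 58.4 in deep-layer and 88.5 CPM in subicular neurons. Microglia were at 116 CPM (0, 35.8 and 301 CPM over 5 suffixes), but 1 nucleus held 36 of their 65 UMIs, and without it they were at 53.0 CPM. The suffix medians of deep-layer (46.9 CPM) and subicular neurons (59.2 CPM) lay above the microglial 35.8 CPM, and those of the 3 hippocampal principal classes below it. The 3 hippocampal principal classes could not be ordered, since CA2/CA3 over CA1 was 1.06 (0.933 to 1.21) and granule over CA1 0.883 (0.777 to 1.002). After thinning, 2.91% of excitatory nuclei had a UMI, against 6.37% of microglia, so no expression is read from that share. Subicular neurons of suffix 5 stood apart at 455 CPM, against 33.1 to 81.0 CPM in the 4 other suffixes. Suffix 5 is among those with few called doublets, and the part of doublets in that value was not tested. Of the 200 subicular UMIs 1 nucleus held 49, and of the 320 in an excitatory cluster led by Unc13c and Cdc14a 1 nucleus held 181.

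**Figure D3:**
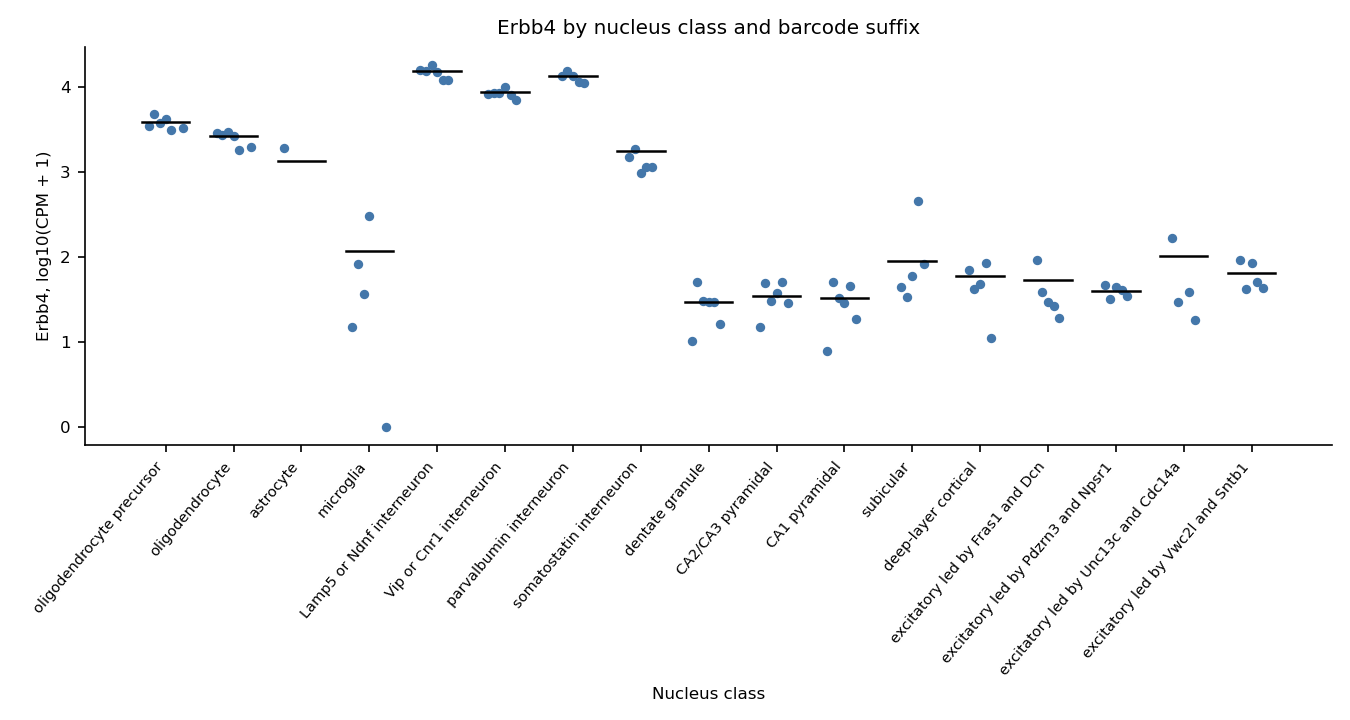
Erbb4 as log10(CPM + 1) by nucleus class; points are barcode suffixes with at least 20 nuclei of the class and lines the level over all its nuclei. Interneurons and the oligodendrocyte lineage lie at 959 CPM or more in every suffix plotted, and excitatory classes lie below 100 CPM apart from subicular neurons of suffix 5 (455 CPM) and a cluster led by Unc13c and Cdc14a in suffix 2 (165 CPM).

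Glia carried Erbb4 too. Along the oligodendrocyte lineage it was 3866 CPM in precursors (3728 to 4008) and 2663 CPM in oligodendrocytes (2616 to 2711). The 59 committed precursors held 5445 CPM (5183 to 5717), with fewer than 20 of them in any suffix. Over 6 suffixes, precursors ran from 3088 to 4799 CPM and oligodendrocytes from 1811 to 2949 CPM, without overlap. A UMI was found in 86.1% of oligodendrocytes (84.6 to 87.4), and in 82.0% after thinning. Astrocytes held 1355 CPM (1227 to 1492), and 51.1% of 131 nuclei had a UMI (42.3 to 59.97). The inhibitory marker Gad2 was at 3.27 CPM in astrocytes and 9.89 CPM in oligodendrocytes, against 711 CPM in Lamp5 or Ndnf interneurons. The whole list of 4 inhibitory markers summed to 582 CPM in astrocytes, where 1 gene was at 0, to 318 CPM in precursors and 240.4 CPM in oligodendrocytes, where none was, against 762 to 1819 CPM in the interneuron classes, and its part in the Erbb4 levels of glia was not tested. In the 1 suffix with at least 20 astrocytes, suffix 1, Erbb4 was at 1901 CPM. That suffix held 72 of the 131 astrocytes and lay above their pooled 1355 CPM, so the astrocytes of the other suffixes together lay below it.

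Within the inhibitory neurons, 13 clusters split Erbb4 and Egfr further. Somatostatin clusters held 928, 2568 and 1234 CPM of Erbb4, led by Lypd6b, Kcnmb2 and Tmem132c in that order. Parvalbumin clusters held 9848 CPM (led by Gna14), 13737 CPM (Btbd11) and 16428 CPM (Tll1). The cluster led by Vip held 12961 CPM of Erbb4 and 421 CPM of Egfr, while the one led by Frem1 and Adarb2, of the same class, held 5745 and 29.8 CPM. A cluster of 65 Lamp5 or Ndnf nuclei in which Reln and Ndnf lead beside Egfr itself had the highest Egfr level, 955 CPM, with 14225 CPM of Erbb4. The larger Lamp5 cluster, led by Hapln1 with 184 nuclei, had 323 CPM of Egfr and 15787 CPM of Erbb4. Egfr and Erbb4 therefore did not follow the same order over these clusters, which were drawn without either gene.

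**Figure D4:**
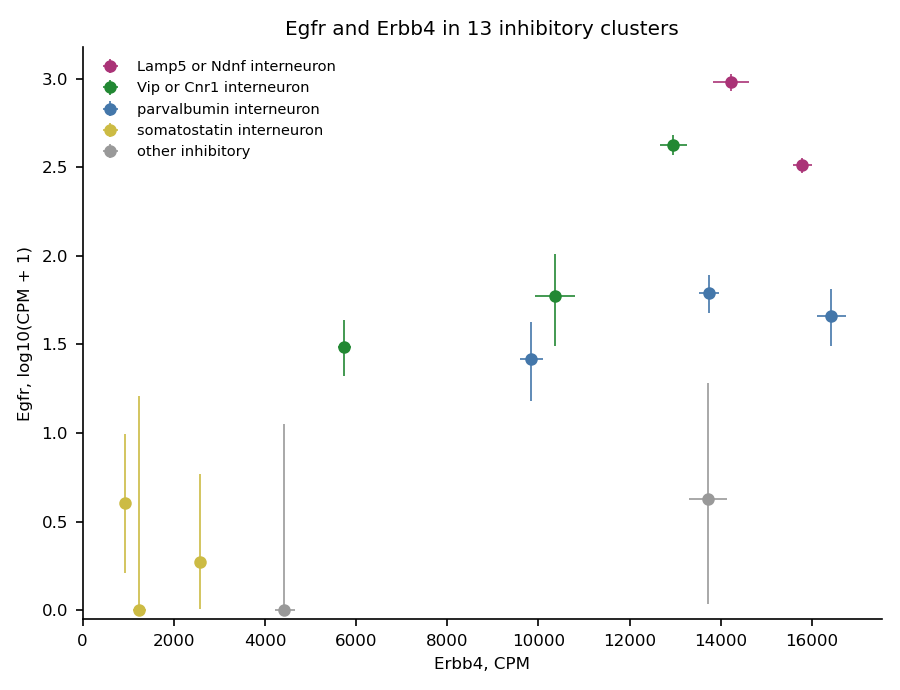
Egfr as log10(CPM + 1) against Erbb4 in CPM for 13 inhibitory clusters, coloured by class; points are summed counts and lines exact Poisson 95% intervals. Lamp5 or Ndnf clusters and the cluster led by Vip hold 323 to 955 CPM of Egfr, whereas parvalbumin clusters, with 9848 to 16428 CPM of Erbb4, stay between 25.2 and 60.5 CPM.

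Egfr, the receptor of EGF-type ligands, was highest in Lamp5 or Ndnf interneurons and in astrocytes. Lamp5 or Ndnf interneurons held 452 CPM (420 to 485, from 760 UMIs), with 318, 464 and 588 CPM as lowest, median and highest of 6 suffixes. Astrocytes held 422 CPM (352 to 502, from 129 UMIs), and the ratio of the interneurons to them was 1.07 (0.887 to 1.30). In Vip or Cnr1 interneurons Egfr was 157 CPM (81.1, 165 and 309 CPM over 6 suffixes), below every suffix value of the Lamp5 or Ndnf class. Parvalbumin interneurons were at 47.2 CPM, and somatostatin interneurons at 1.68 CPM, from 4 UMIs in 342 nuclei. A UMI was found in 68.7% of Lamp5 or Ndnf nuclei (62.5 to 74.4) and 46.6% of astrocytes (37.8 to 55.5), or 32.1 and 30.7% after thinning, against 0.525% of microglia (0.375% after thinning). In the oligodendrocyte lineage Egfr was near 0. No UMI was seen in 300 precursors, where 3 UMIs would be 3.92 CPM, and oligodendrocytes held 2.64 CPM from 12 UMIs.

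Erbb3, the neuregulin receptor with a weak kinase, was seen mainly in the oligodendrocyte lineage. Precursors held 35.3 CPM (23.3 to 51.3, from 27 UMIs) and oligodendrocytes 94.5 CPM (85.8 to 104, from 430 UMIs). Committed precursors held 124 CPM (87.6 to 171), from 37 UMIs in 59 nuclei, and 1 nucleus held 7 of these UMIs. Committed precursors and oligodendrocytes could not be ordered (ratio 1.32, 0.914 to 1.84). Over 6 suffixes oligodendrocytes had 67.5, 104 and 120.2 CPM as lowest, median and highest, and precursors 11.2, 28.4 and 55.1 CPM, without overlap. Only 14.8% of oligodendrocytes had a UMI (13.5 to 16.3), against 0.206% of dentate granule neurons and 0% of 381 microglia, which allows up to 5.34 CPM there. Neurons held 0.415 CPM. The 19.3 CPM of Cajal-Retzius neurons rest on 4 UMIs. An unnamed cluster led by Inpp5d and Siglech held 35.7 CPM of Erbb3 (30.3 to 41.9).

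Erbb2, the partner receptor, was close to undetected, with 6 UMIs in 15214 nuclei. They were 2 UMIs in an excitatory cluster led by Pdzrn3 and Npsr1 and 1 UMI each in dentate granule neurons, CA1 neurons, Lamp5 or Ndnf interneurons and astrocytes. None was seen in 2517 oligodendrocytes, which hold Erbb3, and 3 UMIs there would be 0.659 CPM. No comparison of Erbb2 is made at this depth.

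Levels of different genes were compared per length of gene. Over all nuclei used, Nrg3 had 551 CPM per 100 kb of gene, Erbb4 123, Nrg1 112, Nrg2 99.7, Erbb3 33.1, Nrg4 11.2, Egfr 10.1 and Erbb2 0.243 CPM per 100 kb. In oligodendrocytes the order of the receptors turned on this scale, with Erbb3 at 427 and Erbb4 at 247.5 CPM per 100 kb. Per kb of exon, Erbb3 (15.7 CPM) was again below Erbb4 (215.5 CPM) there. Which receptor is the more abundant in oligodendrocytes therefore depends on the length used, and the share of intronic UMIs is not known.

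The first comparison set inhibitory over excitatory neurons, and the receptors Erbb4 and Egfr differed more than the ligands. A gene was called when its CPM ratio was at least 2 or at most 0.5, with at least 100 UMIs over both sides. Of the 6 members tested, 2 were called higher and 1 lower, where 7.83% of 13008 genes were higher and 9.94% lower. Erbb4 was 9365 CPM in inhibitory and 41.1 CPM in excitatory neurons, a ratio of 228 (219.5 to 237), and within 6 suffixes the ratio ran from 115 to 1073. Egfr was 130 CPM in inhibitory and 2.75 CPM in excitatory neurons (ratio 47.5, 40.6 to 55.8, and 24.6 to 67.6 within suffixes). The ranges of both groups over 6 suffixes did not overlap for either gene. For this and every other pair of suffix ranges described here, the share of all genes without overlap is not given. Nrg1 was 347 CPM in inhibitory neurons and 1347 CPM in excitatory neurons, 3.88-fold lower (3.75 to 4.03), and below 1 in 6 of 6 suffixes. Nrg2 (1.47), Nrg3 (0.899) and Nrg4 (1.91) stayed between the bounds, and each kept its side of 1 in 6 of 6 suffixes.

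Unnamed clusters bore on these values. The cluster led by Ano1 and Prdm16, with Zic1 among its leading genes, held 1465 CPM of Nrg1 and 1587 CPM of Erbb4 in 469 nuclei. With that cluster counted as inhibitory, the log2 ratio of Nrg1 was -0.90 instead of -1.96, which no longer reaches the bound. With each unnamed cluster put in its best class it was -0.24, and the log2 ratio of Erbb4 was 4.99 instead of 7.83 and that of Egfr 4.31 instead of 5.57.

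Inhibitory subclasses were then each set against all other inhibitory neurons, for which 8343 genes were tested. In Lamp5 or Ndnf interneurons 2 members were called higher and none lower, beside 2.82% of genes higher and 6.54% lower. Egfr was 452 CPM in them and 54.9 CPM in other inhibitory neurons (ratio 8.22, 7.27 to 9.31), with 9.84 to 12.8 in 3 suffixes with at least 50 nuclei on each side. Nrg2 was 489 CPM in them and 193 CPM in other inhibitory neurons (ratio 2.53, 2.32 to 2.76). Within 3 suffixes that ratio ran from 1.69 to 3.25, and in suffix 3, at 1.69 (1.40 to 2.03), it was under the bound. Erbb4 (1.95, 1.92 to 1.98) stayed just under the bound. Somatostatin interneurons had 2 members called lower, beside 3.67% of genes lower and 1.88% higher. Erbb4 was 1752 CPM in them and 12163 CPM in other inhibitory neurons, 6.94-fold lower (6.73 to 7.16) and 7.38- to 8.70-fold lower within 4 suffixes. The pooled fold includes the 19 nuclei of suffix 1, without which its log2 ratio was -3.14 instead of -2.80. Egfr was 1.68 CPM in them and 178 CPM in other inhibitory neurons, a ratio of 0.00946 (0.00257 to 0.0243), and without suffix 5 its log2 ratio was -7.58 instead of -6.72, and after thinning -4.51. In parvalbumin interneurons Egfr was the 1 member called, with 47.2 CPM in them and 160.4 CPM in other inhibitory neurons (3.40-fold lower, 2.79 to 4.17, and 3.01- to 12.5-fold lower within 3 suffixes), beside 5.36% of genes lower and 3.19% higher. In parvalbumin interneurons 1 nucleus held 23 of the 111 Egfr UMIs, and the 12 nuclei of suffix 1 were at 171 CPM, against 37.6 CPM in the other suffixes together. With unnamed clusters in their best class that Egfr log2 ratio was -0.54 instead of -1.76, after thinning it was -3.22, and its median within suffixes was -3.27. No member was called in Vip or Cnr1 interneurons, where 2.62% of genes were higher and 4.77% lower.

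Oligodendrocytes over their precursors showed lower ligands, higher Erbb3 and Erbb4 between the bounds. Of 5 members tested, 1 was called higher and 3 lower, beside 18.9% higher and 13.1% lower of 6898 genes. Nrg1 was 70.8 CPM in oligodendrocytes and 721 CPM in precursors (10.2-fold lower, 8.87 to 11.7), Nrg2 was 17.8 CPM in oligodendrocytes and 227 CPM in precursors (12.8-fold lower, 9.76 to 16.8), and Nrg3 was 189.8 CPM in oligodendrocytes and 2227 CPM in precursors (11.7-fold lower, 10.8 to 12.7). All 3 oligodendrocyte levels lay under the pooled levels of microglia, but by suffix medians Nrg3 was at 183 CPM in oligodendrocytes and 119 CPM in microglia. As medians within suffixes, the log2 ratio was -2.04 for Nrg1 and -4.63 for Nrg3. Erbb3 was higher in oligodendrocytes, at 94.5 CPM, against 35.3 CPM in precursors (ratio 2.68, 1.81 to 4.11), with 1.97, 3.60 and 8.82 in the 3 suffixes that hold at least 50 nuclei on each side, where precursors had 11, 2 and 1 UMIs. Its log2 ratio of 1.42 was 0.98 with thinning and 0.92 as mean UMIs per nucleus, both under the bound. Erbb4 was 2663 CPM in oligodendrocytes and 3866 CPM in precursors (ratio 0.689, 0.662 to 0.717), between the bounds and below 1 in 3 of 3 suffixes.

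Non-neuronal nuclei over neurons parted the ligands from Erbb3. Of 7 members tested, 2 were called higher and 4 lower, beside 22.5% higher and 19.0% lower of 13486 genes. All 4 neuregulins were lower. Nrg3 was 490 CPM in non-neuronal nuclei and 6920 CPM in neurons (14.1-fold lower, 13.6 to 14.6), Nrg1 6.69-fold lower, Nrg4 3.77-fold lower and Nrg2 3.67-fold lower, and each ratio was below 1 in 5 of 5 suffixes. In suffix 5, however, Nrg2 (0.703, 0.391 to 1.17) and Nrg4 (0.819, 0.166 to 2.46) stood between the bounds with intervals across 1. Erbb3 was 75.2 CPM in non-neuronal nuclei and 0.415 CPM in neurons, a ratio of 181 (126 to 269.8). Erbb4 was 2619 CPM in non-neuronal nuclei and 1145 CPM in neurons (ratio 2.29, 2.25 to 2.32), and Egfr was 23.0 CPM in non-neuronal nuclei and 17.9 CPM in neurons (ratio 1.29, 1.08 to 1.52). Both sides are mixtures, with 2517 oligodendrocytes among 3461 non-neuronal nuclei and 8504 excitatory nuclei among 9788 neurons. Erbb4 was 41.1 CPM in excitatory and 9365 CPM in inhibitory neurons, so its ratio does not hold for every class of either side. Within suffixes Erbb4 ran from 1.93 to 3.06, under the bound in suffixes 3 (1.93) and 5 (1.99), and Egfr was above 1 in 3 suffixes and below 1 in 2 (0.280 and 0.434). Non-neuronal nuclei held 1899 UMIs on average and neurons 7640, so mean UMIs per nucleus shift every log2 ratio by -2.01. On that scale Erbb4 turned to -0.82, Erbb3 stood at 5.49 and Nrg3 at -5.83.

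**Figure D5:**
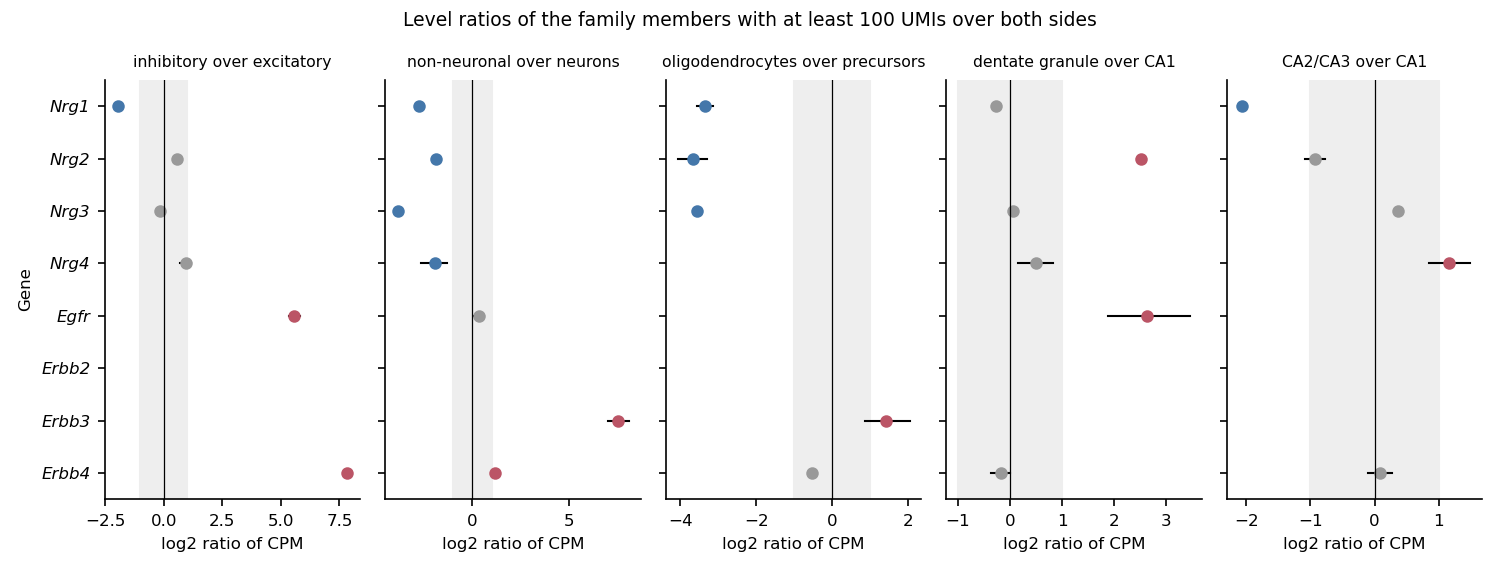
Log2 ratio of CPM of members that reach 100 UMIs summed over numerator and denominator, in 5 comparisons, with exact 95% intervals for a pair of Poisson counts; red is at least 2-fold higher, blue at most 0.5-fold, grey between, and the shaded band marks those bounds. Erbb4 stands at 7.83 for inhibitory over excitatory neurons, Nrg2 at 2.51 for dentate granule over CA1 neurons and Nrg1 at -2.07 for CA2/CA3 over CA1 neurons.

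Dentate granule over CA1 neurons differed by Nrg2 and by traces of Egfr. Of 6 members tested, 2 were called higher and none lower, beside 7.73% higher and 7.37% lower of 11160 genes. Nrg2 was 417 CPM in granule neurons and 73.1 CPM in CA1 neurons (ratio 5.71, 5.37 to 6.08), above 1 in 6 of 6 suffixes with 3.37 to 6.30. Egfr was 6.38 CPM from 105 UMIs in granule neurons and 1.04 CPM from 17 UMIs in CA1 neurons (ratio 6.13, 3.65 to 10.9), and its log2 ratio of 2.62 was 1.22 among nuclei with 2000 to 8000 UMIs and 3.57 after thinning. Granule Egfr lay above the 3.56 CPM of microglia by less than counting error (ratio 1.79, 0.484 to 14.99). Nrg1 (0.832), Nrg3 (1.04), Nrg4 (1.40) and Erbb4 (0.883) stayed between the bounds. Different clusters hold most granule neurons in suffix 1 (led by C1ql2), suffixes 2 to 4 (Glis3) and suffixes 5 and 6 (C1ql3), and most CA1 neurons in suffix 1 (Arc), suffixes 2 to 4 (Gm2115) and suffixes 5 and 6 (Klf10). Nrg1 in CA1 neurons was 544 CPM in the cluster led by Arc, against 1235 and 953 CPM in the clusters led by Gm2115 and Klf10.

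CA2/CA3 over CA1 neurons differed by Nrg1 and Nrg4. Of 5 members tested, 1 was called higher and 1 lower, beside 5.39% higher and 4.26% lower of 10984 genes. Nrg1 was 260 CPM in CA2/CA3 and 1086 CPM in CA1 neurons, 4.19-fold lower (4.03 to 4.34), and 3.08- to 7.59-fold lower within 6 suffixes. Nrg4 was 17.3 CPM in CA2/CA3 and 7.71 CPM in CA1 neurons (ratio 2.24, 1.80 to 2.81), with 1.92 to 2.80 within 6 suffixes and a log2 ratio of 0.95 after thinning instead of 1.17. Nrg2 (0.528), Nrg3 (1.29) and Erbb4 (1.06) stayed between the bounds. Within the CA2/CA3 class, a cluster of 137 nuclei led by Csf2rb2, 109 of them from suffix 1, held 49.6 CPM of Nrg1, against 308 CPM in the other 959 nuclei. The 10 leading genes of that cluster hold 1 marker of mossy cells (Csf2rb2) and 1 of CA2/CA3 neurons (Nectin3). CA2/CA3 nuclei held 11869 UMIs on average and CA1 nuclei 6848, and with mean UMIs per nucleus the log2 ratio of Nrg1 was -1.27 instead of -2.07.

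Transcripts of a pair of receptors, or of a ligand and a receptor, were counted within the same nuclei. All 289 inhibitory nuclei with an Egfr UMI also held Erbb4, as did 95.1% of all 1284 inhibitory nuclei. Of 373 oligodendrocytes with Erbb3, 326 also held Erbb4 (87.4%), beside 86.1% of all oligodendrocytes. In astrocytes, 34 of 61 nuclei with Egfr held Erbb4 (55.7%), beside 51.1% of all. Nrg3 and Erbb4 stood together in 94.7% of inhibitory nuclei and in 90.3% of 300 oligodendrocyte precursors. These shares are close to what each class holds in general, and deeper nuclei show more genes of any kind.

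Genes with the most alike pattern were ranked by Pearson correlation of log2(CPM + 1) over the 16 named classes, among 5227 genes that took no part in clustering or naming. All points share the same libraries, so the values describe the profile only. For Nrg3 they were Ptprn2 (0.97), Bicdl1 (0.96) and Svop (0.96), and for Nrg1 Fzd3 (0.74), Nucb2 (0.73) and Sema6b (0.72). Nrg1 was thus matched less closely than Nrg3. For Nrg2 they were Slc9a5 (0.85), Plppr1 (0.84) and Vstm2a (0.81), and for Nrg4 Tbc1d30 (0.90), L3mbtl4 (0.88) and Lgi2 (0.85). Erbb3 was matched by Plxnb3 (0.95), a semaphorin receptor gene, by Bfsp2 (0.91) and by Phldb1 (0.89), all highest in committed oligodendrocyte precursors. Erbb4 was matched by Tmtc2 (0.85), Arhgef11 (0.84) and Klhl13 (0.82), and Egfr by Frem1 (0.84), Zgpat (0.77) and Dlx1 (0.74), a transcription factor gene of the interneuron lineage.

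Of 57 other genes of the pathway, listed in 5 groups by role, 51 could be tested between inhibitory and excitatory neurons, of which 7 were higher and 2 lower, beside 7.83% higher and 9.94% lower of all genes, and their median log2 ratio was 0.11 beside 0.05 over all genes. Erbin, which encodes a scaffold that binds ErbB2, was 116 CPM in inhibitory and 19.4 CPM in excitatory neurons (ratio 5.99, 5.51 to 6.51), and Spry4, a feedback inhibitor of receptor kinases, was 7.45 CPM in inhibitory and 1.38 CPM in excitatory neurons (5.40, 3.87 to 7.496). Bace2, a relative of the protease that cuts Nrg1, was at 0.181 (0.0773 to 0.360), and Tgfa, a ligand of EGFR, at 0.221 (0.138 to 0.337). The 3 postsynaptic scaffold genes known to bind ErbB4, Dlg4, Dlg2 and Magi2, were all between the bounds. Among inhibitory subclasses 39 were tested, and at most 1 was higher and 1 lower in each, beside 1.88 to 3.19% higher and 3.67 to 6.54% lower of all genes. In Lamp5 or Ndnf interneurons these were Adam10, a protease gene (2.31), and Pik3cb (0.498), a PI3 kinase subunit. Pik3r1, another PI3 kinase subunit, was higher in Vip or Cnr1 interneurons (2.70) and lower in parvalbumin interneurons (0.343), while Spry2, another feedback inhibitor, was lower in Vip or Cnr1 (0.437) and higher in parvalbumin interneurons (2.27). None was called in somatostatin interneurons.

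More pathway genes passed the bounds outside neurons, as did more genes of all kinds. For non-neuronal nuclei over neurons, 21 of 52 were higher and 4 lower, beside 22.5% higher and 19.0% lower of all genes, with a median log2 ratio of 0.80 beside 0.24 over all genes. Gab1, an adaptor that joins receptors to PI3 kinase, was 721 CPM in non-neuronal nuclei and 4.97 CPM in neurons (ratio 145, 130 to 162), and Lrig3 was 64.4 CPM in non-neuronal nuclei and 1.34 CPM in neurons (48.1, 38.6 to 60.5). Shc2 (0.205) and Dlg4 (0.221) were lowest. Among the 19 adaptors and negative regulators 10 were higher and 2 lower, to be read beside the same shares of all genes. Every log2 ratio of this comparison is 2.01 lower as mean UMIs per nucleus. For oligodendrocytes over precursors, 7 of 39 were higher and 5 lower, near the 18.9% higher and 13.1% lower of all genes, with a median of 0.33 beside 0.22. Erbin was again highest, 1286 CPM in oligodendrocytes and 129 CPM in precursors (9.94, 8.15 to 12.2), followed by Ptpn11 (5.91), a phosphatase that relays receptor signals. Shc3, a neuronal adaptor, was 64.1-fold lower in oligodendrocytes and Dlg4 8.70-fold lower.

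Among principal neurons, 5 of 45 pathway genes were higher and 5 lower in dentate granule over CA1 neurons, beside 7.73% higher and 7.37% lower of all genes, with a median log2 ratio of 0.03 beside 0.06. Tgfa led at 34.5 CPM in granule neurons and 0.551 CPM in CA1 neurons, a ratio of 62.6 (32.7 to 138) from 9 CA1 UMIs, followed by Erbin (11.2). Shc3 (0.189) and Pik3r1 (0.233) were lowest. In CA2/CA3 over CA1 neurons, 2 of 46 were higher and 3 lower, near the 5.39% higher and 4.26% lower of all genes, with a median of 0.02 beside -0.02. Tgfa (14.5, 7.36 to 32.6) and Bace2 (4.06) were higher, and Pik3r1 (0.257) and Lrig1 (0.295), a negative regulator of ErbB receptors, were lowest.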

How the data were processed

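The deposited values were UMI counts per gene and barcode, made with Cell Ranger 4.0.0 on mm10 (GRCm38), per the file headers and the submitters' processing notes. Barcodes of all samples came in 1 matrix, which the authors did not normalize as far as its whole-number values show. Of 15661 barcodes, 15553 had at least 500 UMIs, 300 genes and under 5% mitochondrial UMIs. Scrublet, in scanpy 1.11.5 with an expected rate of 0.05, called 339 doublets (2.18%), which left 15214 nuclei. The whole matrix held 101300889 UMIs.

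Nuclei were clustered by Leiden (leidenalg 0.10.2, resolution 1, 30 components, 15 neighbours) on 2137 genes, the 2000 most variable together with marker genes, with the family, the pathway lists and 12422 other genes kept out. Clusters were named from marker lists, and those with markers of several classes or of none stayed unnamed. So did clusters with inhibitory markers but no interneuron subclass, while excitatory clusters without a finer name were kept. The members, lists and tests were chosen with earlier results of these data known, and details of the naming were set while looking at the clusters. Named genes were all 8 members, the 3 genes most alike to each member with at least 500 UMIs, and the 2 highest and 2 lowest called pathway genes per comparison.

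With a single group of nuclei there is no replicate and no test between samples. Levels are summed counts as CPM with exact Poisson intervals, shares of nuclei have exact binomial intervals, and ratios have exact intervals for a pair of Poisson counts (95%, scipy 1.17.1, numpy 2.4.6, python 3.11.15). All intervals cover counting error only. The ratio code was tested on simulated data. A called gene has a ratio of at least 2 or at most 0.5 with 100 UMIs over both sides. Thinning drew 1000 UMIs from each nucleus and left out 868 shallower ones. Alternatives were other scalings, filters, doublet handling, clustering and naming, and leaving out each suffix. The barcode suffixes held 1274111 to 26206961 UMIs each. Some results are not reported here.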

Additional observations from a re-analysis of the deposited data

How the results depend on the processing

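No paired analysis was possible because all nuclei form 1 group in 1 matrix and no label ties a barcode suffix to a sample. Values here are log2 ratios. Of 22 member ratios past the 2-fold bounds, 20 stayed past them as mean UMIs per nucleus, after thinning and with unnamed clusters in their best class, 21 with the cluster marked by Zic1 counted as inhibitory, and 22 under each other alternative, including without each suffix in turn. The Zic1 setting and the limit to 2000 to 8000 UMIs were chosen after seeing the data. As mean UMIs per nucleus, Erbb4 for non-neuronal nuclei over neurons turned to -0.82. Erbb4 for inhibitory over excitatory neurons, 7.83, was 7.66 as mean UMIs per nucleus, 7.98 thinned, 7.72 with doublets kept, 8.12 as median within suffixes, 4.99 with unnamed clusters in their best class, 7.36 with the Zic1 cluster and 7.71 at 2000 to 8000 UMIs. Nrg3 for non-neuronal nuclei over neurons, -3.82, was in the same order -5.83, -4.015, -3.25, -3.64 and -3.72, then -3.47 at 2000 to 8000 UMIs, -3.54 at 2000 UMIs or more and -3.90 at resolution 2. Nrg1 for CA2/CA3 over CA1 neurons, -2.07, was -1.27 as mean UMIs, -1.61 thinned, -2.15 with doublets kept, -1.89 as median within suffixes, -2.17 at resolution 2 and -1.61 at 2000 to 8000 UMIs. Nrg2 for dentate granule over CA1 neurons, 2.51, was 2.41 with doublets kept. Egfr for Lamp5 or Ndnf over other inhibitory neurons, 3.04, was 2.67 thinned, 3.61 as median within suffixes, 4.00 with unnamed clusters in their best class and 3.62 with the Zic1 cluster. Without each suffix in turn, Erbb4 ran from 7.64 to 8.27, Nrg3 from -3.97 to -3.67, Nrg1 from -2.18 to -1.86, Nrg2 from 2.48 to 2.56, Egfr from 2.85 to 3.28 and Erbb3 for oligodendrocytes over precursors from 1.27 to 1.68. The cause of these shifts was not tested. Depth limits Erbb2 (6 UMIs in all), Nrg4 in small classes and Erbb3 in precursors (27 UMIs), and the 7 suffixes cannot be told apart from batches or animals.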

Other observations

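Clusters that stayed unnamed entered no comparison, and their members' values are given here. The cluster led by Baiap3 and Resp18, with 690 of 701 nuclei in suffix 1, held 2071 CPM of Nrg1 (2033 to 2109), 5279 CPM of Nrg3 and 1579 CPM of Erbb4, and 61.1% of its nuclei had an Erbb4 UMI. Its Nrg4 level was 22.9 CPM (19.1 to 27.3).

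The cluster of 507 nuclei led by Inpp5d and Siglech, genes known from microglia, carried markers of neurons, oligodendrocytes and microglia together. It held 3456 CPM of Nrg3 and 1850 CPM of Erbb4 (1809 to 1892). The cluster of 120 nuclei led by Slc7a15 and Stxbp6 carried oligodendrocyte markers among excitatory ones and held 419 CPM of Nrg2 (387 to 452), 936 CPM of Erbb4 and 18.3 CPM of Erbb3. A cluster of 36 nuclei led by Ebf2 and Ebf3 held 11837 CPM of Nrg3 (11362 to 12327) and 359.6 CPM of Nrg2.

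A last unnamed cluster, of 29 nuclei led by Frem1 and Egfr, had markers of several interneuron subclasses and was not counted among the inhibitory neurons. They held 9118 CPM of Erbb4, and the interval of their Egfr level ran from 142 to 273 CPM.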
